A study of Mus musculus with 26 samples.

Results

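The proteasome subunit genes were taken as all mouse genes whose symbol begins with Psma, Psmb, Psmc, Psmd or Psme and goes on with a number, which gave 44 of the 12886 genes measured. Of these, 42 encode subunits or dedicated cofactors of the proteasome. Psmc3ip, a cofactor of meiotic recombination, and Psme3ip1, which encodes a binding partner of the activator PSME3, carry the letters of the rule but are no subunits, and they were counted apart. Each gene was read from its probe set with the highest mean over 26 arrays, as log2 intensity, and all 44 passed the filter on dim probe sets. The 1 probe set for Psme2, the ring partner of Psme1, is also annotated to Psme2b and was not used.

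The series profiled mouse osteosarcoma, a malignant bone tumour, on 1-colour oligonucleotide arrays. It holds 4 osteosarcoma cell lines (176, 179, 182 and 213), 4 secondary tumours, 15 primary osteosarcomas and, as its control, 3 cultures of wild-type osteoblasts differentiated in vitro. Secondary tumours 29, 64 and 94 are labelled as transplants, while number 66 is labelled as tumour tissue that came from a cell line and is called a cell line in its title. The tumours and lines are labelled as coming from a mouse model, and the titles of the secondary tumours carry the prefix OPflR, which the labels do not spell out; strain, age, sex and alleles are not stated in those labels. The labels do not say whether each osteoblast culture had its own animal, and on that side the p-values may therefore measure technical spread.

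The proteasome is the main protease of the cytosol and nucleus, and it degrades proteins marked with ubiquitin. Its core particle is a barrel of alpha rings, which gate the entrance, around beta rings, which hold the proteolytic sites. A regulatory particle of ATPase and non-ATPase subunits binds ubiquitin chains, unfolds the substrate and feeds it into the barrel. In cells that receive interferon, the catalytic subunits PSMB5, PSMB6 and PSMB7 of newly built barrels can be exchanged for PSMB8, PSMB9 and PSMB10, which gives the immunoproteasome, known for producing peptides that MHC class I molecules present. Other activators dock in place of the regulatory particle, among them the interferon-inducible ring of PSME1 and PSME2, the nuclear ring of PSME3 and the single-chain activator PSME4.

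By the signals of bacterial spike-in transcripts, the arrays fell into 3 sets, called A, B and C here, which the labels do not name. Set A holds the 3 osteoblast cultures and nothing else, so set and group cannot be told apart in comparisons against osteoblasts. Set B holds 7 primary tumours and all 4 secondary tumours, and set C holds 8 primary tumours and all 4 cell lines. The ratio of the 5′ to the 3′ Gapdh control probe set, a measure of RNA integrity, was 1.04 to 1.08 in cell lines, 0.839 to 1.08 in secondary tumours, 0.656 to 0.845 in primary tumours of set B, 0.909 to 1.03 in those of set C and 0.916 to 0.967 in osteoblasts. Macrophage markers were high in tumour tissue: the mean of 14 macrophage markers lay at 5.22 to 5.48 in cell lines, 8.46 to 10.16 in secondary tumours, 8.43 to 10.65 in primary tumours and 5.39 to 5.54 in osteoblasts, on the log2 scale, with C1qa at the floor in all 3 osteoblast cultures. The mean of the 6 measured osteoblast markers, of 9 listed, was 9.50 to 12.12 in cell lines, 12.19 to 12.96 in secondary tumours, 10.13 to 13.09 in primary tumours and 12.03 to 12.12 in osteoblasts. The osteoblast cultures also held 7 measured adipocyte markers at a mean of 11.02 to 11.09, against at most 7.26 elsewhere. In bulk samples like these, fewer cells of a type and less RNA per cell cannot be told apart.

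Shown are the promoters of 4 members, Psme1, Psmb8 and Psmb9 of the interferon-inducible side of the family and Psmb6 of its constitutive side. They run from 250 bases before to 50 bases after the RefSeq start on GRCm38.p6, 5′ to 3′ on the gene's own strand, and capitals mark the match to 1 of 4 motifs searched on both strands. Psme1 (chr14:55578244-55578543, plus strand) holds the core of the interferon-stimulated response element, GAAA repeated after a gap of 2 bases, read here on the opposite strand. Psmb6 (chr11:70525107-70525406, plus strand) holds the antioxidant response element core, TGACNNNGC. Psmb8 (chr17:34197945-34198244, plus strand) holds the GAS element, TTCNNNGAA, and Psmb9 (chr17:34187281-34187580, minus strand) holds a CCAAT box, read on the opposite strand.
Psme1: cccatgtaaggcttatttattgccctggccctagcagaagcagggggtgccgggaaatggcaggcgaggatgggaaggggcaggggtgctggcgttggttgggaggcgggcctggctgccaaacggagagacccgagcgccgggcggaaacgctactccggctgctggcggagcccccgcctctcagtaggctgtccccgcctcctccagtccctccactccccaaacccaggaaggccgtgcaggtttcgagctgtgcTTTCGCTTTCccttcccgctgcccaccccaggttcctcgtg
Psmb6: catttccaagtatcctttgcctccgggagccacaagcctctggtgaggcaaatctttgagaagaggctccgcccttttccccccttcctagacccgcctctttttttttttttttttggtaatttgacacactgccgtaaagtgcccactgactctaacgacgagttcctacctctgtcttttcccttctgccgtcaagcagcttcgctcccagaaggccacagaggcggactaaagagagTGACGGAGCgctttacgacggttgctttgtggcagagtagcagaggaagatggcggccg
Psmb8: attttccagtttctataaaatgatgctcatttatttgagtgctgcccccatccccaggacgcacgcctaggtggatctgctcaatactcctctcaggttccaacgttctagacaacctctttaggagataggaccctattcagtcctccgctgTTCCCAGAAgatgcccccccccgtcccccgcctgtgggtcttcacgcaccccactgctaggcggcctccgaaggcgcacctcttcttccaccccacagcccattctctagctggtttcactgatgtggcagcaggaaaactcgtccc
Psmb9: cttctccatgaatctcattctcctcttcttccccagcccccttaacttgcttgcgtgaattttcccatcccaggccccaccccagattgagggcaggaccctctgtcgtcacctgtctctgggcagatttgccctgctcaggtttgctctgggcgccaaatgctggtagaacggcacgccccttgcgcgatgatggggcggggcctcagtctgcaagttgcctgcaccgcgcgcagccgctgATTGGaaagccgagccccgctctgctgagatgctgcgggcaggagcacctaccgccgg
RefSeq promoters were found for 35 of the 42 subunit genes, 37 windows in all. The response element core was present in 4 of the 37, those of Psmb3, Psmd4, Psmd9 and Psme1, and in 3.44% of all 32851 promoters. The antioxidant element core was present in 6 windows and in 12.4% of all promoters, the CCAAT box in 14 and 37.4%, and the GAS element in 2 and 8.30%. The Psmb9 window overlaps that of Tap1, which encodes a subunit of the peptide transporter TAP and lies on the opposite strand, over 275 bases. A match describes the letters of a window and says nothing of binding.

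Most subunit transcripts were abundant on all arrays, and their spread among primary tumours was near that of all genes. The median SD among the 15 primary tumours was 0.32 over the 42 subunit genes, against 0.37 over all 12886 genes, and the largest SD was that of Psmb8 (1.05). Psma8, the testis form of an alpha subunit, had group means of 4.55 ± 0.46 in cell lines (SD, n = 4), 4.62 ± 0.68 in secondary tumours (n = 4), 4.73 ± 0.75 in primary tumours (n = 15) and 5.24 ± 0.25 in osteoblasts (n = 3). Psmb11, the catalytic subunit of the thymus, had 5.78 ± 0.64, 5.46 ± 0.28, 5.56 ± 0.26 and 5.88 ± 0.33 in the same groups. Neither gene passed in any comparison, where a gene passed when limma's p-value, adjusted over all 12886 genes, was below 0.05.

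Cell lines were compared with primary tumours to ask how osteosarcoma cells in culture differ from tumour tissue, and all 18 subunits that passed were higher in the lines. limma called 18 of 42 subunits higher and none lower in cell lines, against a background of 37.5% of all genes called, 17.5% higher and 20% lower. The difference was above 0 for 36 of 42 subunits, and its median was 0.38 over the subunits and -0.03 over all genes (log2). Of the 18, 3 differed by at least 2-fold, against 11.7% of all genes, 4.72% higher and 7.03% lower, and 5 did without primary tumour 330 and 1 with the array set as a covariate. The values of 8 subunits did not overlap between the groups, all higher in the lines, against 4.15% of all genes higher and 5.24% lower.

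Psme1, the subunit of the interferon-inducible activator ring, had the largest difference of these. Its log2 intensity was 9.41, 9.28, 9.23 and 10.13 in cell lines 176, 179, 182 and 213, against a lowest value of 6.83, a median of 8.01 and a highest of 8.97 in primary tumours. All 4 lines lay above all 15 tumours. The difference was 1.44 (SE 0.275, limma adjusted p = 0.000268), a 2.72-fold higher level. Psmb3, a beta ring subunit without a catalytic site, read 10.67, 10.49, 10.33 and 10.26 in the same lines, against 8.37, 9.14 and 10.41 as lowest, median and highest in primary tumours. Only primary tumour 330 reached into the range of the lines. The difference was 1.25 (SE 0.251, adjusted p = 0.000447).

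Psmd10, known as gankyrin and a chaperone in the assembly of the regulatory particle, read 7.35, 7.46, 7.50 and 7.19 in the cell lines. In primary tumours it ran from 5.42 over a median of 6.20 to 7.21, so that the groups touched at line 213. The difference was 1.11 (SE 0.275, adjusted p = 0.00293), and it was 0.62 (adjusted p = 0.0082) against the 8 primary tumours of set C, the set of the lines. Those 8 tumours had a Psmd10 mean of 6.75 ± 0.40 (SD), and the 7 of set B had 5.72 ± 0.16. Among the other core subunits, the non-catalytic Psmb1 and Psmb2 and the alpha subunit Psma2 also rose, as did the non-ATPase subunits Psmd3, Psmd6, Psmd7, Psmd11 and Psmd12, the ATPases Psmc3 and Psmc5 and the nuclear activator Psme3. Of 7 alpha ring subunits only Psma2 passed, and of the 6 ATPases only Psmc3 and Psmc5 did.

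**Figure D1:**
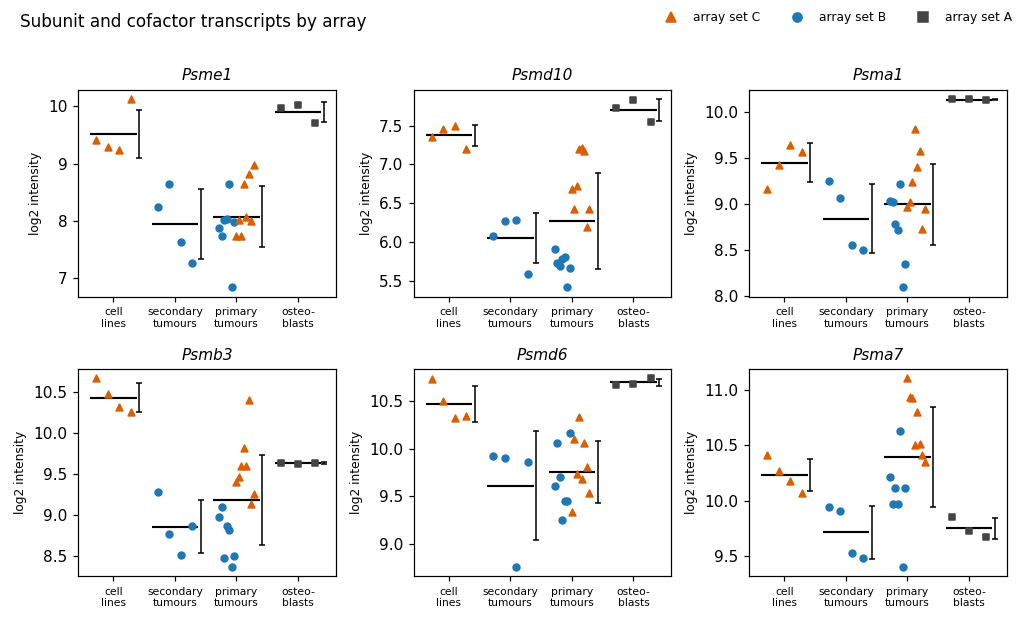
Log2 intensity (vertical axes) of Psme1, Psmd10, Psma1, Psmb3, Psmd6 and Psma7 on each of 26 arrays, by group from left to right (4 cell lines, 4 secondary tumours, 15 primary tumours, 3 osteoblast cultures), with the horizontal line at the group mean, the bar at 1 SD on each side and the marker giving the set of arrays. Psme1 and Psmd10 lie high in cell lines and osteoblasts and low in both kinds of tumour, and Psma7 is the subunit called higher in primary tumours than in osteoblasts.

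All 3 constitutive catalytic subunits rose in the cell lines. Psmb6, the caspase-like site, read 11.18, 11.16, 10.81 and 10.94 in lines 176, 179, 182 and 213, against 9.27, 9.98 and 10.95 as lowest, median and highest in primary tumours, and only tumour 330 reached the lines. Its difference was 0.99 (SE 0.175, limma adjusted p = 0.000125). Psmb5, the chymotrypsin-like site and the target of bortezomib, differed by 0.79 (SE 0.235, adjusted p = 0.0105), with means of 10.84 ± 0.17 in lines and 10.05 ± 0.51 in primary tumours. Psmb7, the trypsin-like site, differed by 0.79 (SE 0.226, adjusted p = 0.00841), with means of 11.34 ± 0.23 and 10.55 ± 0.46 in the same groups. Against the 8 primary tumours of set C alone, Psmb6 still passed (difference 0.81, adjusted p = 0.000845), while Psmb5 (0.48) and Psmb7 (0.47) lay at the threshold. In the fit with both sets of primary tumours as groups of their own, neither passed (adjusted p = 0.0746 for Psmb5 and 0.0587 for Psmb7), and in a fit without the set B tumours Psmb5 passed (adjusted p = 0.0434) and Psmb7 did not (adjusted p = 0.0813).

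Within set C, 14 of 42 subunits were called higher and 1, Psma7, lower in cell lines than in primary tumours, against 16.6% and 15.8% of all genes. The median difference there was 0.29 over the subunits and 0.02 over all genes. Psme1 (1.27, limma adjusted p = 0.00199), Psmb3 (0.85, adjusted p = 0.00131) and Psme3 (0.66, adjusted p = 0.000786) were among the 14. The 2 sets of primary tumours also differed from each other, with 9 subunits called lower and 2 higher in set B than in set C, against 6.05% and 14.7% of all genes. Psmd10 (-1.04), Psmb3 (-0.85), Psmb1 (-0.72), Psmb7 (-0.68), Psmb5 (-0.66) and Psma7 (-0.63) had the largest of these differences. The tumours of set B were also those with the low Gapdh ratio given above, and the part of RNA quality in these values was not tested. All 14 macrophage markers, 8 of 9 endothelial markers and all 6 measured osteoblast markers were called lower in cell lines than in primary tumours, against 20% of all genes. The part of cell mixture in the subunit values was not tested either.

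The immunoproteasome genes Psmb8 and Psmb9 did not pass in any comparison, and Psmb10 moved little. Psmb8 read 7.76, 8.65, 7.44 and 9.13 in cell lines 176, 179, 182 and 213, and 7.53, 7.65, 7.28 and 6.53 in secondary tumours 29, 64, 66 and 94. In primary tumours it ran from 5.50 in tumour 119 over a median of 7.12 to 9.60 in tumour 330, and osteoblasts read 8.03, 8.04 and 7.69. The wide range of the primary tumours overlapped every other group, while the 4 secondary tumours lay wholly below the 3 osteoblast cultures. Secondary tumours and osteoblasts differed by -0.67 (limma adjusted p = 0.445). The difference was 0.96 between cell lines and primary tumours (95% interval -0.04 to 1.95, limma adjusted p = 0.121), 0.32 between cell lines and osteoblasts (-1.03 to 1.67, adjusted p = 0.794) and -0.63 between primary tumours and osteoblasts (-1.75 to 0.48, adjusted p = 0.356). A change of 2-fold in at least 1 direction lay inside each of these intervals.

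Psmb9 read 5.54, 7.78, 7.03 and 7.80 in cell lines 176, 179, 182 and 213, and 7.71, 7.72, 7.51 and 7.09 in secondary tumours 29, 64, 66 and 94. Primary tumours ran from 6.24 in tumour 119 over a median of 6.97 to 8.36 in tumour 66, and osteoblasts read 7.25, 7.08 and 6.62. Line 176 lay below every other array, and the rest overlapped. The difference was -0.10 between cell lines and primary tumours (adjusted p = 0.828) and 0.40 without line 176, and it was 0.15 between primary tumours and osteoblasts (95% interval -0.58 to 0.89, adjusted p = 0.752).

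Psmb10 varied least of the immunoproteasome genes. It read 8.85, 9.05, 8.95 and 9.24 in cell lines 176, 179, 182 and 213 and 8.85, 9.05, 8.54 and 8.86 in secondary tumours 29, 64, 66 and 94. Primary tumours ran from 8.33 over a median of 8.63 to 9.04, and osteoblasts read 9.26, 9.01 and 9.11, so that tumour 66 alone reached into the osteoblast range. Psmb10 fell in primary tumours relative to osteoblasts (difference -0.47, SE 0.132, limma adjusted p = 0.00561) and was higher in cell lines than in primary tumours (0.37, SE 0.117, adjusted p = 0.0158). Each call was lost without a single array, that against osteoblasts without culture 1 (-0.40) and that of the lines without line 213 (0.30). The call against osteoblasts was also lost after quantile normalization (-0.21, adjusted p = 0.136).

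**Figure D2:**
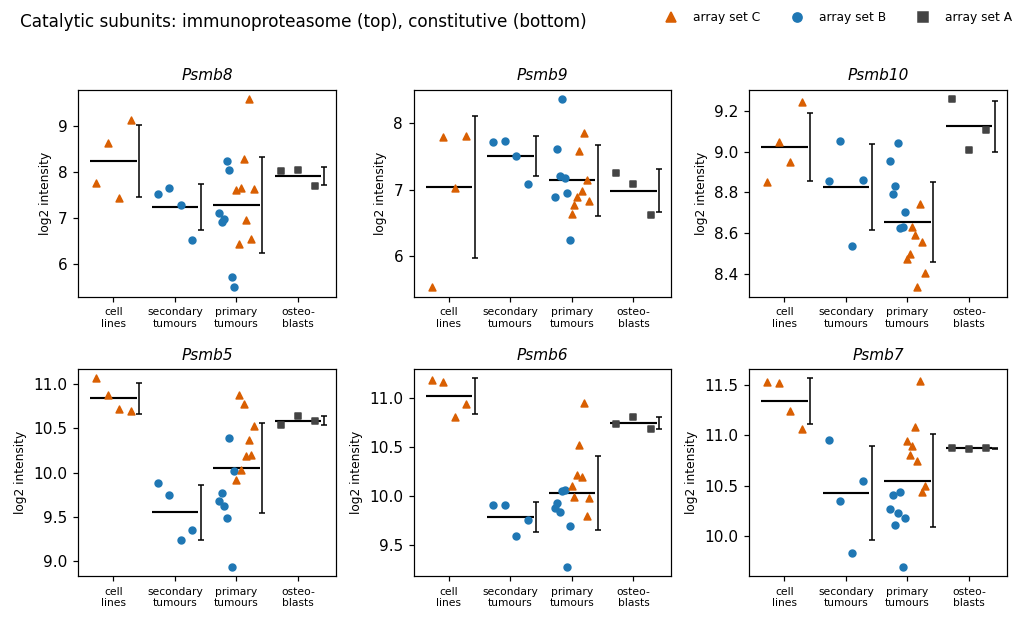
Log2 intensity (vertical axes) of the immunoproteasome catalytic genes Psmb8, Psmb9 and Psmb10 (top) and their constitutive partners Psmb5, Psmb6 and Psmb7 (bottom) on each of 26 arrays, by group from left to right (cell lines, secondary tumours, primary tumours, osteoblasts). The horizontal line is the group mean, the bar is 1 SD on each side and the marker gives the set of arrays. Psmb8 and Psmb9 spread widely within the groups, while Psmb5, Psmb6 and Psmb7 lie higher in the 4 cell lines than in most primary tumours.

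The exchange of the proteins was not measured. Their transcripts were also read as the difference of each immunoproteasome gene from its constitutive partner on the same array. This difference cancels an offset that all genes of an array share, and not a difference between array sets that varies by gene. In primary tumours, Psmb10 minus Psmb7 averaged -1.39 in set B and -2.34 in set C. Psmb9 minus Psmb6 averaged -2.61 and -3.13 in the same sets. The pair differences were compared between groups by exact two-sided permutation tests, adjusted over 3 pairs in 6 comparisons, and none of the 18 tests passed. The pair of Psmb9 and Psmb6 came nearest. Psmb9 minus Psmb6 was -5.64, -3.38, -3.78 and -3.14 in cell lines 176, 179, 182 and 213 and -2.19, -2.18, -2.07 and -2.67 in secondary tumours 29, 64, 66 and 94. In primary tumours it ran from -3.47 over a median of -2.98 to -1.69, and in osteoblasts it was -3.49, -3.73 and -4.06. The 15 primary tumours and the 4 secondary tumours all lay above the 3 osteoblast cultures, and the 4 secondary tumours lay above the 4 lines.

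The mean of Psmb9 minus Psmb6 was 0.87 higher in primary tumours than in osteoblasts (exact permutation p = 0.0098, adjusted p = 0.0882) and 1.48 higher in secondary tumours than in osteoblasts (exact permutation p = 0.0286, the smallest that 4 against 3 arrays allow, adjusted p = 0.106). It was 1.09 lower in cell lines than in primary tumours (exact permutation p = 0.00645, adjusted p = 0.0882) and 1.71 lower in cell lines than in secondary tumours (exact permutation p = 0.0286, the smallest that 4 against 4 allow, adjusted p = 0.106). Without line 176, whose value was the lowest, these differences were -0.54 (exact permutation, adjusted p = 0.326) and -1.15 (adjusted p = 0.132). Against primary tumours of set C alone, the set of the lines, the 4 lines differed by -0.85 (exact permutation, adjusted p = 0.0566). All lines are of set C and all secondary tumours of set B, and the test between them took no account of the set. Psmb8 minus Psmb5 differed by -0.10 between primary tumours and osteoblasts (exact permutation, adjusted p = 0.943), and Psmb10 minus Psmb7 by -0.15 (adjusted p = 0.832). For Psmb10 minus Psmb7 the sets disagreed, with 0.35 in primary tumours of set B (exact permutation, adjusted p = 0.225) and -0.59 in those of set C (exact permutation, adjusted p = 0.0182), each against osteoblasts. With only the primary tumours of set C in the tests, Psmb9 minus Psmb6 also passed against osteoblasts (0.63, exact permutation, adjusted p = 0.0182), and with only those of set B it did not (1.15, adjusted p = 0.1). Without primary tumour 66 it passed in primary tumours against osteoblasts (0.78, exact permutation, adjusted p = 0.0397), in cell lines against primary tumours (-1.01, adjusted p = 0.0451) and in secondary against primary tumours (0.70, adjusted p = 0.0397). These tests did not use the pairing by number. Secondary tumours against primary tumours of set B alone, their own set, gave 0.33 (exact permutation, adjusted p = 0.473). Primary tumours 29, 64, 66 and 94 read -2.32, -2.64, -1.69 and -2.32. Secondary tumours of the same numbers read -2.19, -2.18, -2.07 and -2.67, higher for 29 and 64 and lower for 66 and 94.

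Among the 15 primary tumours, the immunoproteasome genes were set against the mean of 17 interferon response genes, the mean of 14 macrophage markers, the mean of the 4 measured T and NK cell markers of 12 listed, and their constitutive partner, 12 relations in all. Psmb9 followed the interferon mean (Pearson r = 0.836, permutation p adjusted over the 12 relations 0.00132; Spearman rho = 0.75, adjusted p = 0.0128). Without tumours 66 and 330, which lie farthest from the median of the interferon mean, r was 0.636 (adjusted p = 0.0796), so the relation rested in part on those tumours. It was 0.949 within the 7 tumours of set B (permutation, adjusted p = 0.0262) and 0.642 within the 8 of set C (adjusted p = 0.18). Psmb9 also followed the T and NK marker mean (permutation, r = 0.801, adjusted p = 0.00168, and rho = 0.764, adjusted p = 0.0128). There r was 0.752 without tumours 29 and 330, 0.881 in set B and 0.693 in set C (permutation, adjusted p = 0.0407, 0.0262 and 0.18). That marker mean ran only from 5.34 to 5.99 in primary tumours, near the level of 5.56 to 5.73 that the osteoblast cultures gave.

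Psmb8 (r = 0.598) and Psmb10 (r = 0.596) followed the interferon mean less closely, and neither passed after adjustment (permutation, adjusted p = 0.0571 each). Spearman rho was 0.482 for Psmb8 and 0.507 for Psmb10 (permutation, adjusted p = 0.17 each). Without tumours 66 and 330, r was 0.336 for Psmb8 and 0.370 for Psmb10 (permutation, adjusted p = 0.39 each). After quantile normalization both passed over all 15 tumours (permutation, r = 0.626, adjusted p = 0.0389 for Psmb8 and r = 0.590, adjusted p = 0.0491 for Psmb10). Psmb8 with the T and NK marker mean passed there too (r = 0.686, permutation, adjusted p = 0.0167), and not before (r = 0.561, adjusted p = 0.0686). Against the macrophage mean, r was 0.415 for Psmb8, 0.188 for Psmb9 and 0.229 for Psmb10, and none passed (permutation, lowest adjusted p = 0.211). Psmb10 and Psmb7 gave r = 0.247 within set B and 0.682 within set C, and the pooled value, whose sign was negative, is not used.

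**Figure D3:**
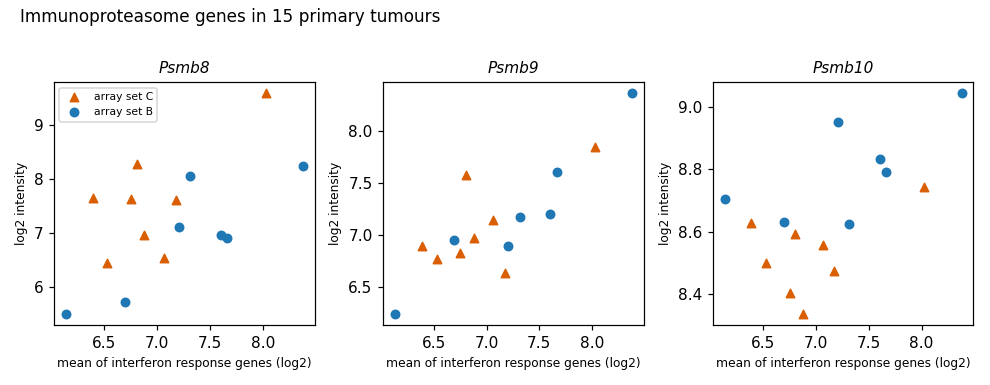
Log2 intensity of Psmb8, Psmb9 and Psmb10 (vertical axes) against the mean log2 intensity of 17 interferon response genes (horizontal axis) in 15 primary tumours, with the marker giving the set of arrays. Psmb9 climbs with the interferon mean in both sets, with tumours 66 and 330 at the upper end.

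The interferon response genes were described as a list of their own. Of the 17 measured of 20 listed, 8 fell and 2 rose in primary tumours against osteoblasts, with a median difference of -1.23, against 25.3% of all genes called lower and 17.4% higher. In cell lines against primary tumours 8 rose and none fell, with a median of 1.01, against 17.5% of all genes higher and 20% lower. Iigp1, an interferon-inducible GTPase, averaged 6.63 in primary tumours and 10.05 in osteoblasts, a difference of -3.41 (SE 0.740, limma adjusted p = 0.000658). Ifit3, an antiviral effector, was 1.83 higher in cell lines than in primary tumours (SE 0.438, adjusted p = 0.00223), and Usp18, a brake on interferon signalling, was 2.48 higher (SE 0.691, adjusted p = 0.00682), a call lost without line 179 or line 213. The mean over the list was 6.36, 8.85, 8.07 and 9.03 in lines 176, 179, 182 and 213, 6.70 to 7.70 in secondary tumours, 6.14 to 8.38 in primary tumours and 7.77 to 8.20 in osteoblasts. Line 176, the lowest line in this mean, was also the line with the lowest Psmb9.

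Of 11 genes of MHC class I presentation, 3 fell in primary tumours against osteoblasts, near the 25.3% of all genes called lower, and 3 rose in cell lines against primary tumours, where 17.5% of all genes were called higher. Erap1, the aminopeptidase that trims peptides in the endoplasmic reticulum, was 1.30 lower on the log2 scale in primary tumours than in osteoblasts (difference -1.30, SE 0.244, limma adjusted p = 0.000149), and the transporter subunit Tap2 differed by -0.92 (SE 0.243, adjusted p = 0.00361). Canx, the chaperone calnexin, was 1.00 higher in cell lines than in primary tumours (SE 0.212, adjusted p = 0.000762). Tap1, whose promoter window overlaps that of Psmb9, did not pass in any comparison.

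Primary tumours were compared with osteoblasts as tumour against the control of the series. limma called 1 subunit higher and 14 lower in primary tumours, 15 of 42 in all, against a background of 42.7% of all genes called, 17.4% higher and 25.3% lower. The median difference was -0.33 over the subunits and -0.07 over all genes, and it was above 0 for 11 of 42. The split depended on scaling: after quantile normalization 7 subunits were called higher and 7 lower, with a subunit median of -0.05 and an all-gene median of 0.01, and scaling by the 75th percentile of each array gave 2 higher and 14 lower. The values of 10 subunits did not overlap between the groups, all lower in primary tumours, against 8.96% of all genes higher and 17.3% lower. Of the called subunits, 3 differed by at least 2-fold, against 18.5% of all genes, 6.58% higher and 11.9% lower, and these were 5 in set B alone and 1 in set C alone.

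Psme1 had the largest difference here too, with osteoblasts at 9.97, 10.03 and 9.70 above every primary tumour. The difference was -1.83 (SE 0.309, limma adjusted p = 4.34e-05), a 3.56-fold lower level, and it was -2.03 in tumours of set B and -1.66 in those of set C. Psmd10 read 7.72, 7.83 and 7.55 in osteoblasts, again above all primary tumours, with a difference of -1.43 (SE 0.309, adjusted p = 0.000636) that was -1.98 in set B and -0.95 in set C. Psma1, an alpha ring subunit, ran from 8.10 over a median of 9.02 to 9.82 in primary tumours, against 10.14, 10.14 and 10.13 in osteoblasts. The groups did not overlap, and the difference was -1.14 (SE 0.238, adjusted p = 0.000462). The other kept probe set of Psma1 gave 0.19 (adjusted p = 0.406), so its 2 probe sets disagree.

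Psmd8, a lid subunit of the regulatory particle, ran from 8.40 over 8.74 to 9.53 in primary tumours, against 9.87, 9.81 and 9.85 in osteoblasts, a difference of -0.997 (SE 0.233, limma adjusted p = 0.00129). Psmd6, also of the lid, ran from 9.25 over 9.70 to 10.33, against 10.67, 10.68 and 10.74 in osteoblasts, a difference of -0.95 (SE 0.215, adjusted p = 0.000977). Both separated the groups. The ATPases Psmc4 and Psmc5, the non-ATPases Psmd11, Psmd12 and Psmd13, the alpha subunit Psma2, the nuclear activator Psme3 and the catalytic Psmb6 and Psmb10 made up the other falls. Psmb6 fell by 0.71 on the log2 scale (SE 0.197, adjusted p = 0.00511), a call lost after quantile normalization (-0.42), while Psmb5 (-0.54, adjusted p = 0.103) and Psmb7 (-0.32, adjusted p = 0.315) did not pass.

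Psma7, another alpha ring subunit, was the 1 subunit called higher in primary tumours. It ran from 9.41 in tumour 94 over a median of 10.41 to 11.10 in tumour 176, against 9.85, 9.73 and 9.67 in osteoblasts, and tumour 94 lay below all 3 cultures. The difference was 0.64 (SE 0.233, limma adjusted p = 0.0278), with 0.94 (adjusted p = 0.000312) in set C and 0.31 (adjusted p = 0.195) in set B. With any single osteoblast culture left out, the call was lost (0.61 to 0.70).

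Beside these falls, all 14 macrophage markers, 7 of 9 endothelial markers and 7 of 10 muscle markers were higher in primary tumours than in osteoblasts, with median differences of 4.03, 1.58 and 3.48, and all 7 adipocyte markers were lower (median -4.38). The part of these cells in the subunit values was not tested. The Gapdh ratio of the primary tumours of set B lay below that of the osteoblasts, and 19 subunits were called lower in set B alone and 13 in set C alone, against 24.6% and 27.9% of all genes.

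Subunits that passed between secondary tumours and osteoblasts were all lower in the tumours. limma called 13 of 42 subunits lower and none higher, against 35.1% of all genes called, 15.7% higher and 19.4% lower, and 7 differed by at least 2-fold, against 18.5% of all genes, 7.7% higher and 10.8% lower. That count of 7 was 3 without secondary tumour 66, 3 after quantile normalization and 4 with the tumour number as a random block. The values of 17 subunits did not overlap, all lower in secondary tumours, against 24.1% of all genes higher and 28.2% lower. The median difference was -0.43 over the subunits and -0.02 over all genes. Psme1 read 8.24, 8.64, 7.63 and 7.26 in secondary tumours 29, 64, 66 and 94, all below the osteoblasts, with a difference of -1.96 (SE 0.374, adjusted p = 0.00028). Psmd10 read 6.08, 6.27, 6.28 and 5.59 in the same tumours, a difference of -1.64 (SE 0.373, adjusted p = 0.00149). Psma1 (-1.29, SE 0.288, adjusted p = 0.00125), Psmd6 (-1.09, SE 0.259, adjusted p = 0.00224) and Psmb5 (-1.04, SE 0.319, adjusted p = 0.0133) followed, the last not called after quantile normalization (-0.77). Both comparisons use the same 3 osteoblast cultures, so their values are not independent.

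Few subunits passed between cell lines and osteoblasts. limma called 3 of 42 subunits higher and none lower, against 14.9% of all genes called, 3.8% higher and 11.1% lower, and the median difference was 0.07 over the subunits and -0.10 over all genes. None differed by 2-fold, against 8.2% of all genes. The values of 14 subunits lay wholly above and those of 4 wholly below the osteoblasts, against 13.2% and 27.9% of all genes. Psmb2, a beta subunit without a catalytic site, read 10.48, 10.41, 10.49 and 10.41 in lines 176, 179, 182 and 213, against 9.91, 9.87 and 9.73 in osteoblasts, a difference of 0.61 (SE 0.191, adjusted p = 0.0307). Psmd9, an assembly chaperone, read 8.25, 8.46, 8.31 and 8.50 in the lines and 7.88, 7.84 and 7.65 in osteoblasts, a difference of 0.59 (SE 0.199, adjusted p = 0.0455). Psmd3, a scaffold of the lid, read 9.36, 9.21, 9.07 and 9.33 in the lines and 8.75, 8.85 and 8.67 in osteoblasts, a difference of 0.49 (SE 0.153, adjusted p = 0.032). None of the 3 overlapped between the groups, yet each call was lost when any single osteoblast culture was left out. Psmb2 and Psmd3 also lost theirs without any 1 of 3 of the lines. Psmd9 lost its call in 16 of 26 fits without 1 array, each line among them, and with the mean of the probe sets (0.26, adjusted p = 0.641). Psme1 differed by -0.39 (adjusted p = 0.533) and the catalytic Psmb5, Psmb6 and Psmb7 by 0.25 (adjusted p = 0.653), 0.28 (adjusted p = 0.473) and 0.46 (adjusted p = 0.334).

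**Figure D4:**
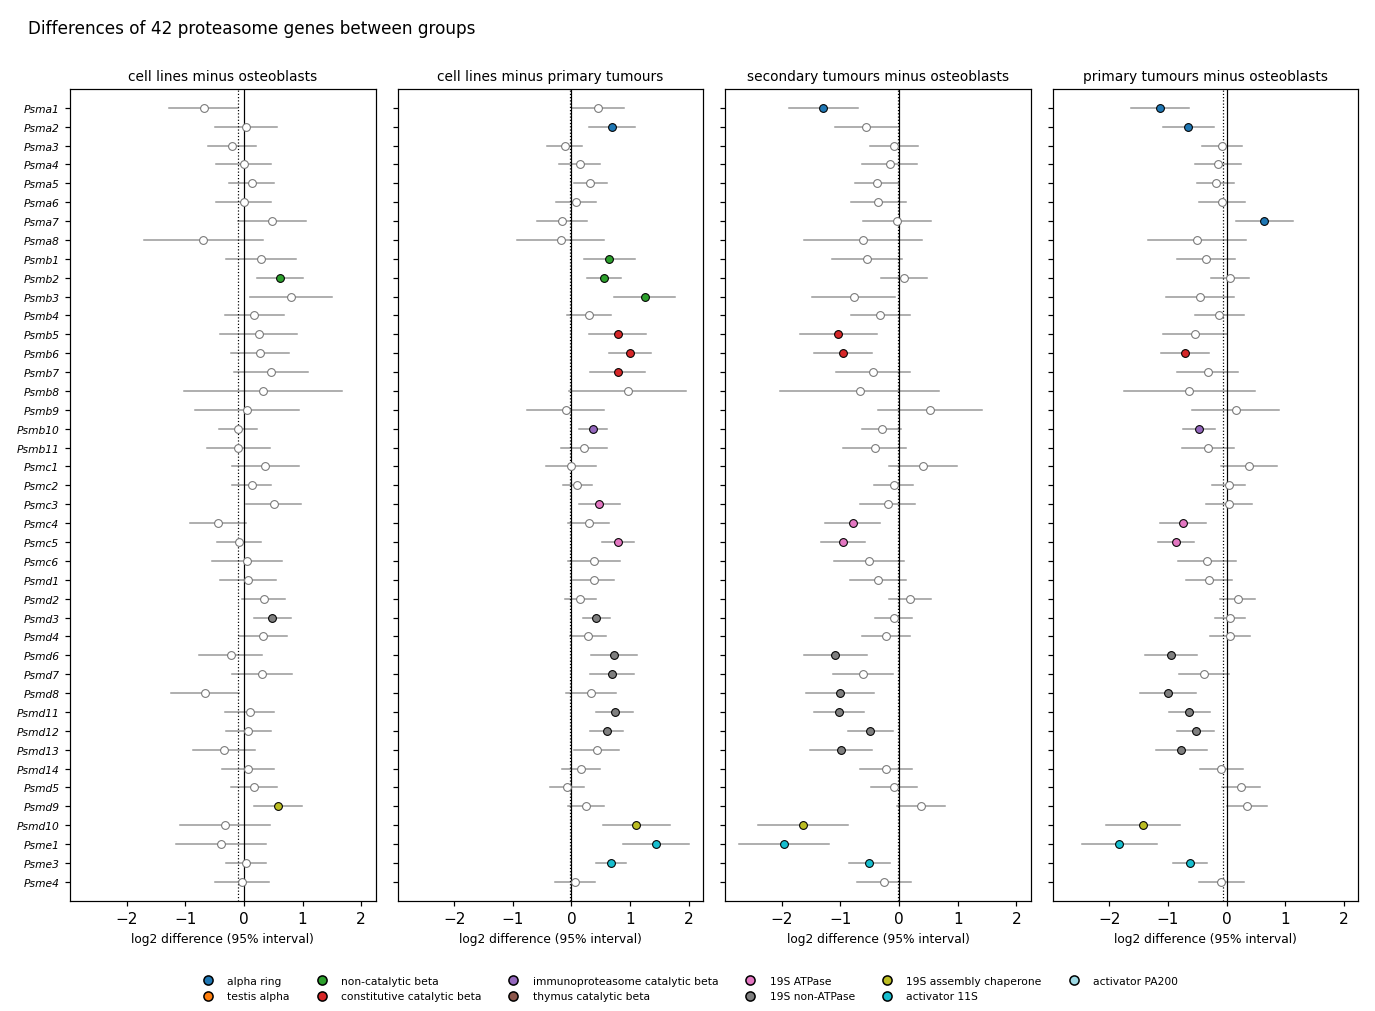
Log2 difference of each of 42 subunit genes (horizontal axes) in 4 comparisons, cell lines minus osteoblasts, cell lines minus primary tumours, secondary tumours minus osteoblasts and primary tumours minus osteoblasts, coloured by role in the proteasome. Points are the differences, lines their 95% intervals, filled points passed at the adjusted threshold, and the dotted line is the median of all genes. Cell lines lie to the right of primary tumours for 36 of 42 subunits, and Psme1 has the largest fall of both kinds of tumour against osteoblasts.

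Cell lines were higher than secondary tumours for 19 of 42 subunits and lower for none, against 30.3% of all genes called, 12.7% higher and 17.6% lower. The median difference was 0.53 over the subunits and -0.07 over all genes. At least 2-fold differences were called for 6 subunits, against 13.2% of all genes, 4.77% higher and 8.4% lower, and 18 subunits did not overlap, all higher in the lines, against 12.7% of all genes higher and 19.8% lower. Psmb3 read 10.67, 10.49, 10.33 and 10.26 in the lines and 9.29, 8.78, 8.51 and 8.86 in secondary tumours 29, 64, 66 and 94, a difference of 1.58 (SE 0.315, limma adjusted p = 0.000727). Psme1 (1.57, SE 0.346, adjusted p = 0.00162), Psmd10 (1.32, SE 0.345, adjusted p = 0.00585), Psmb5 (1.29, SE 0.296, adjusted p = 0.00216) and Psmb6 (1.23, SE 0.221, adjusted p = 0.000263) came next. All lines are of set C and all secondary tumours of set B, and with the set as a covariate, estimated from the primary tumours, 3 of 42 subunits passed. Psmb6 kept its call there (0.83, adjusted p = 0.0386), and Psmb3 (0.72, adjusted p = 0.108), Psme1 (1.19, adjusted p = 0.0865), Psmb5 (0.63, adjusted p = 0.203) and Psmd10 (0.28, adjusted p = 0.523) did not. None differed by 2-fold with the set as a covariate, and 10 did after scaling by the 75th percentile. Without secondary tumour 66, 10 subunits passed.

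Secondary and primary tumours differed in no subunit at the adjusted threshold, with 0.00776% of all genes called by limma. The unadjusted limma p was below 0.05 for 4 of 42 subunits, all lower in secondary tumours. That share lay near the 9.48% of all genes with such a p in either direction. No subunit separated these groups without overlap, against 0.0543% of all genes higher and 0.0388% lower. The median difference was -0.13 over the subunits and 0.04 over all genes, and within set B it was -0.01 and -0.00. Some lines and secondary tumours carry the number of a primary tumour. Cell line 176 was higher than primary tumour 176 for 37 of 42 subunits (median 0.55), against 51.2% of all genes. Line 179 was higher than tumour 179 for 35 (0.36), against 50.7%, and line 182 higher than tumour 182 for 30 (0.18), against 47.4%. Secondary tumours 29, 64, 66 and 94 were higher than the primary tumour of their number for 20, 25, 3 and 38 subunits. The lowest subunit means of all arrays were 8.77 in secondary tumour 66 and 8.74 in primary tumour 94. Those means are built from the same values as the counts. They are therefore not independent of the low count for number 66 and the high count for number 94.

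Psme3, the nuclear activator, had little spread and parted the groups. It read 8.42, 8.25, 8.36 and 8.27 in lines 176, 179, 182 and 213 and 7.67, 7.71, 7.73 and 8.02 in secondary tumours 29, 64, 66 and 94. Primary tumours ran from 7.24 over a median of 7.67 to 8.01, and osteoblasts read 8.21, 8.43 and 8.23. All lines and all osteoblasts lay above all tumours. The difference was 0.67 between cell lines and primary tumours (SE 0.124, limma adjusted p = 0.000214) and -0.63 between primary tumours and osteoblasts (SE 0.140, adjusted p = 0.000825). Psme4, the single-chain activator, averaged 8.79 ± 0.27 in cell lines (SD, n = 4), 8.57 ± 0.35 in secondary tumours (n = 4), 8.73 ± 0.30 in primary tumours (n = 15) and 8.82 ± 0.07 in osteoblasts (n = 3) and passed in no comparison.

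Genes that build the proteasome or control its transcription were described in the same comparisons. Of 14 measured of 17 listed, 5 rose and 1 fell in cell lines against primary tumours (median 0.20; 17.5% of all genes higher and 20% lower). In primary tumours against osteoblasts 4 fell (median -0.23), a share near the 25.3% of all genes called lower. Psmd10 is in this list too. Nfe2l1, the transcription factor that raises proteasome genes when the proteasome is impaired, averaged 9.81 in cell lines and 8.39 in primary tumours, a difference of 1.43 (SE 0.210, limma adjusted p = 1.56e-05), and 8.39 in primary tumours and 9.54 in osteoblasts, a difference of -1.15 (SE 0.236, adjusted p = 0.000375). The core assembly chaperone Psmg2 differed by 0.93 (SE 0.157, adjusted p = 7.61e-05) and -0.73 (SE 0.177, adjusted p = 0.00188) in the same comparisons, and Psmg4 by 1.09 between lines and primary tumours (SE 0.253, adjusted p = 0.00171).

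Of 12 measured of 19 listed genes of ubiquitin conjugation and delivery, 5 rose and 1 fell in cell lines against primary tumours (median 0.37; 17.5% of all genes higher and 20% lower), and 1 rose and 5 fell in primary tumours against osteoblasts (median -0.32; 17.4% and 25.3% of all genes). Sqstm1, the ubiquitin-binding autophagy receptor p62, averaged 11.39 in cell lines and 9.80 in primary tumours, a difference of 1.59 (SE 0.173, limma adjusted p = 3.36e-07), and differed by -0.85 between primary tumours and osteoblasts (SE 0.195, adjusted p = 0.00116). Uba3, the catalytic subunit of the NEDD8-activating enzyme, differed by 1.39 (SE 0.237, adjusted p = 8.68e-05) and -1.20 (SE 0.267, adjusted p = 0.00081). Of 14 measured of 15 listed chaperone and stress genes, 3 rose in cell lines against primary tumours (median 0.42) and 3 fell in primary tumours against osteoblasts (median -0.27), near the 17.5% of all genes called higher and the 25.3% called lower in these comparisons. The stress-induced transcription factor Ddit3 was 1.94 higher (SE 0.253, adjusted p = 3.79e-06) and the heme oxygenase Hmox1 1.68 higher (SE 0.289, adjusted p = 9.36e-05) in the lines than in primary tumours.

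Other probe sets of the same genes were read as a check of the chosen ones. A further 27 kept probe sets covered 18 of the 42 genes. Their difference between cell lines and primary tumours had the sign of the chosen probe set in 19 of 27, and 3 passed with the opposite sign, 1 each for Psmc2, Psmd7 and Psmd11. In primary tumours against osteoblasts, 21 of 27 shared the sign and 1 passed with the opposite sign, that of Psmd7 (1.34, SE 0.382, limma adjusted p = 0.00615), where the chosen probe set gave -0.39 and did not pass. For called subunits alone, 10 of 13 further probe sets shared the sign there and 4 passed with it. The same counts were 8 of 10 and 5 in cell lines against primary tumours, and 8 of 12 and 4 in secondary tumours against osteoblasts. They were 13 of 15 and 8 in cell lines against secondary tumours, and 0 of 1 and 0 in cell lines against osteoblasts.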

How the data were processed

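The authors deposited 1 table of linear array intensities for 45101 probe sets on 26 arrays; no source used here states the software or scaling behind them. Probe sets were named through the platform annotation given with the data: 34945 carried 1 symbol, 932 several and 9224 none. Intensities were raised to a floor at their 20th percentile (12.5) and taken to log2. Probe sets above the median intensity (52.6) on at least 3 arrays were kept, 22997 in all, and each gene was read from the kept probe set of highest mean, which gave 12886 genes. limma 3.58.1 in R 4.3.3 fitted the 4 groups in 1 model, and each of 6 comparisons had its p-values adjusted over all genes (Benjamini-Hochberg). Pair differences and correlations were tested by permutation in Python 3.11.15 and R. The fit was tested on simulated data. The number of arrays limits the precision. Sets of arrays were cut from the ratios of the bacterial controls.

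Named genes were Psmb5 to Psmb10, Psme1, Psme3 and Psme4, up to 5 subunits with the largest called rise and fall per comparison, and up to 4 called genes of each other list; genes without values in a list of calls complete that count. The members and gene lists were chosen with earlier results of these data known. Same-numbered secondary and primary tumours deviated together (r = 0.224 to 0.642 over genes), so the number pairs them. Alternatives covered the floor, filter, scaling, probe set choice, array weights, samples entering the fit, blocks and each array left out.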

Additional observations from a re-analysis of the deposited data

Results flagged for a closer look

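Psmd6, a lid subunit, read 8.76 in secondary tumour 66, while the other 3 secondary tumours read 9.86 to 9.92. The gap to the nearest of the others was 0.944 of the range of the 4 values, above Dixon's critical value for 4 samples. It was 1 of 36 groups checked over 18 named genes, and chance alone flags about 1 in 20 groups. Secondary tumour 66 also had the lowest mean over the 42 subunits among secondary tumours (8.77).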

How the results depend on the processing

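Most results kept their direction and their side of the threshold: of 3661 values under alternatives, 3526 did, 65 lost and 19 gained a call, 15 counts moved by over 1.5 times and 36 values turned sign. These are single values, most from leaving out 1 array; of 93 results for 1 gene or pair, 48 kept direction and side under every alternative run. The count of subunits passed in cell lines against osteoblasts, 3, was 5 after quantile normalization, 8 (7 higher, 1 lower) with only the compared groups and 8 (6 higher, 2 lower) with array weights. Array weights gave 27 (3 higher, 24 lower) in primary tumours against osteoblasts and 23 (1 higher, 22 lower) in secondary tumours against osteoblasts. With the tumour number as a fixed replicate block, cell lines against primary tumours gave 11 (10 higher, 1 lower), and with it as a random block the 6 counts were 15, 3, 13, 19, 0 and 14. Cell lines and primary tumours of 1 number deviated together little (r = 0.035 to 0.081), and whether they share an origin was not tested. The block left the count of 0 between secondary and primary tumours as it was. The array set as a covariate gave 3 in cell lines against secondary tumours and 14 in cell lines against primary tumours. Leaving out 1 array gave 13 to 16 in primary tumours against osteoblasts, 0 to 3 in cell lines against osteoblasts, 11 to 14 in secondary tumours against osteoblasts, 16 to 21 in cell lines against primary tumours, 0 in secondary against primary tumours and 10 to 20 in cell lines against secondary tumours. The values that turned sign had passed no test. Psmb10 in cell lines against osteoblasts was 0.15 after quantile normalization and 0.078 after scaling to the 75th percentile. Psmb9 in cell lines against primary tumours was 0.022 after quantile normalization, 0.12 with array weights and 0.018 with the fixed block. Psmb8 in secondary against primary tumours was 0.027 with array weights, 0.060 with the random block, 0.28 with the fixed block and 0.31 with the set as a covariate or set B alone, and Psmb9 was -0.020 with the fixed block. Psmb8 minus Psmb5 in cell lines against osteoblasts was -0.033 after quantile normalization. Psmb10 minus Psmb7 was 0.35 in primary tumours of set B against osteoblasts, -0.21 in secondary tumours against primary tumours of set B and 0.025 in cell lines against primary tumours of set C. Within sets, Psmb10 with Psmb7 gave r = 0.25 (set B) and 0.68 (set C), and Psmb8 with Psmb5 gave -0.011 (set C). With each array left out, Psmb9 ran from -0.026 to 0.29 in primary tumours against osteoblasts, -0.20 to 0.55 in cell lines against osteoblasts, -0.36 to 0.40 in cell lines against primary tumours and -0.73 to 0.030 in cell lines against secondary tumours. Psmb8 ran from -0.17 to 0.20 in secondary against primary tumours, and Psmb8 minus Psmb5 from -0.28 to 0.31 in cell lines against osteoblasts, -0.18 to 0.40 in cell lines against primary tumours and -0.24 to 0.029 in primary tumours against osteoblasts. Psmb9 minus Psmb6 ran from -0.51 to 0.33 in cell lines against osteoblasts. The cause of these changes was not tested. Low levels near the floor, such as those of Psma8, limit what the arrays resolve.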
